A study of Drosophila melanogaster with 76 samples.

Results

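The Grainy head (Grh) regions called at the highest copper dose only are 2142 of the 11903 regions in the peak list of Grh-expressing S2 cells at 400 µM copper sulfate. They were selected on the calls themselves. A region was kept when it overlapped, by 1 bp or more, no region of 5 other anti-Grh lists, namely those at 0, 25 and 100 µM of the same dose series, the single-dose list at 100 µM and the wild-type list at 100 µM. The 31 lists of the series hold 179969 regions in all.

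Grh is the founding member of a family of transcription factors that maintain epithelia. In the fly it controls genes of cell junctions, of the cuticle and of wound repair, and it can bind its sites in closed chromatin. S2 cells are an embryonic line with properties of blood cells, not of an epithelium. The cells that expressed Grh carried a construct whose expression was induced with copper sulfate.

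Binding was measured by chromatin immunoprecipitation followed by sequencing (ChIP-seq), 48 h after copper was added. The cells called S2-Grh were given 0, 25, 100 or 400 µM copper sulfate in the dose series, 100 µM in the single-dose experiment, and 100 µM together with DMSO or a treatment written "taz" in a further pair; wild-type S2 cells were given 100 µM, all with the anti-Grh antibody. S2-Grh-DBD cells, which carry a shortened Grh construct named DBD in the labels, were given 20 µM in 2 experiments and 80 µM in another. The other lists came from cells expressing Zelda (Zld, 0 to 1500 µM), its DBD construct (100 or 400 µM) or Twist (Twi, 40 µM, or tagged as HA-Twi, 0 to 160 µM), and from wild-type cells with anti-Zld (1000 µM), anti-Twi (40 µM) or anti-HA (40 µM). Zld is a zinc-finger protein of the earliest embryonic genes, and Twi, a basic helix-loop-helix protein, sets up the mesoderm. All cells are of the 1 line, and the labels do not say whether a construct line was a single clone.

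Each list pools 2 libraries, so no list carries a spread and no test between lists was possible. Shares of regions carry exact Clopper-Pearson 95% intervals. These reflect the counting of regions alone, and regions that lie side by side are not independent. No list of wild-type cells at 400 µM was analysed here, so the amount of Grh and the copper dose itself cannot be told apart in the choice of regions. Depth per library is not stated in the lists. The authors' filter of called peaks is not stated in the sources read here, and the share of peak numbers kept differed between the 6 anti-Grh lists that chose the regions: 64.6% at 400 µM, 20.8%, 69.3% and 72.7% at 0, 25 and 100 µM, 77.1% in the single-dose list and 19.8% in wild type. Whether a region is new at 400 µM or was only below the filter at lower doses was not tested.

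The fold of a region, as the authors' peak caller computed it, sets the immunoprecipitation against the local background where its summit is highest, and it describes rank within 1 list only. The 400 µM-only regions had a median fold of 3.69 (quartiles 3.09 and 4.55, range 1.74 to 9.05), and the other 9761 regions of the list had 5.16 (quartiles 3.58 and 7.31, highest 12.7). Of the 400 µM-only regions, 452 (21.1%, interval 19.4% to 22.9%) stood above the list's median fold of 4.72, and 2 stood above its 90th percentile. They were narrow and simple. Their median width was 426 bp, against 810 bp for the other regions. A single summit was present in 84.9% (83.3% to 86.4%) of them and in 53.0% (52.0% to 54.0%) of the others, with at most 4 summits in a 400 µM-only region and 15 in another one. These values come from the list the rule used and are a description. Their −log10 q-values, also the authors', had a median of 26.3 and a lower quartile of 17.5, against 62.2 and 31.3 for the other regions, and the lowest value in the list was 1.35.

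At the edge of the rule, 9 of the 400 µM-only regions began within 50 bp of a region of a removed list. The closest lay inside CG7991 (fold 2.99, abutting), CG9593 (fold 2.21, 16 bp away), Dmtn (fold 2.87, 25 bp) and angel (fold 2.58, 28 bp), and 19190 bp from NijA (fold 3.55, 38 bp). Just outside the rule, 2 other regions overlapped a removed list by 50 bp or less, 1365 bp from dpp (19 bp of overlap, fold 2.92) and inside Cul1 (28 bp, fold 3.05). The next were inside spdi (108 bp, fold 3.41), dac (114 bp, fold 4.26) and CG31522 (132 bp, fold 4.45).

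Most 400 µM-only regions lay more than 1000 bp from any region of the removed lists. By the rule none of them overlaps such a region, so these distances are in part set by the choice. Whether they exceed those of random positions was not tested. The median distance to the nearest region of the 5 removed lists was 2606 bp (quartiles 962 and 6313 bp, highest 124362 bp). Within 1000 bp of such a region lay 545 of them (25.4%, 23.6% to 27.3%), and 340 (15.9%, 14.3% to 17.5%) were more than 10000 bp away. Distant regions did not have lower folds: the median fold was 3.91 beyond 10000 bp and 3.56 within 1000 bp. The median distance from one 400 µM-only region to the nearest other one was 12716 bp, against 1267 bp between neighbouring other regions. The other regions are more numerous, so this contrast does not show whether the 400 µM-only regions were spread apart or clustered. Their spacing against random positions was not tested. The chromosome arms held similar shares of 400 µM-only regions, from 16.8% of the list's regions on 3L (15.4% to 18.3%) to 19.5% on X (17.8% to 21.3%), and 11.1% of the 45 regions on chromosome 4 (3.71% to 24.1%).

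Seen from the lists that the rule did not use, these regions are mostly unshared. The contrast with the other regions is in part set by the choice. The 25 lists include further anti-Grh lists, and the other regions include all those also called at lower doses or in wild type. Of the 2142, 1587 (74.1%, 72.2% to 75.9%) overlapped none of the other 25 lists. The remaining 555 (25.9%, 24.1% to 27.8%) overlapped at least 1 list, against 96.1% (95.7% to 96.5%) of the other regions and 83.5% of the whole 400 µM list. Of these, 391 were in 1 or 2 lists and 64 in 5 or more.

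**Figure D1:**
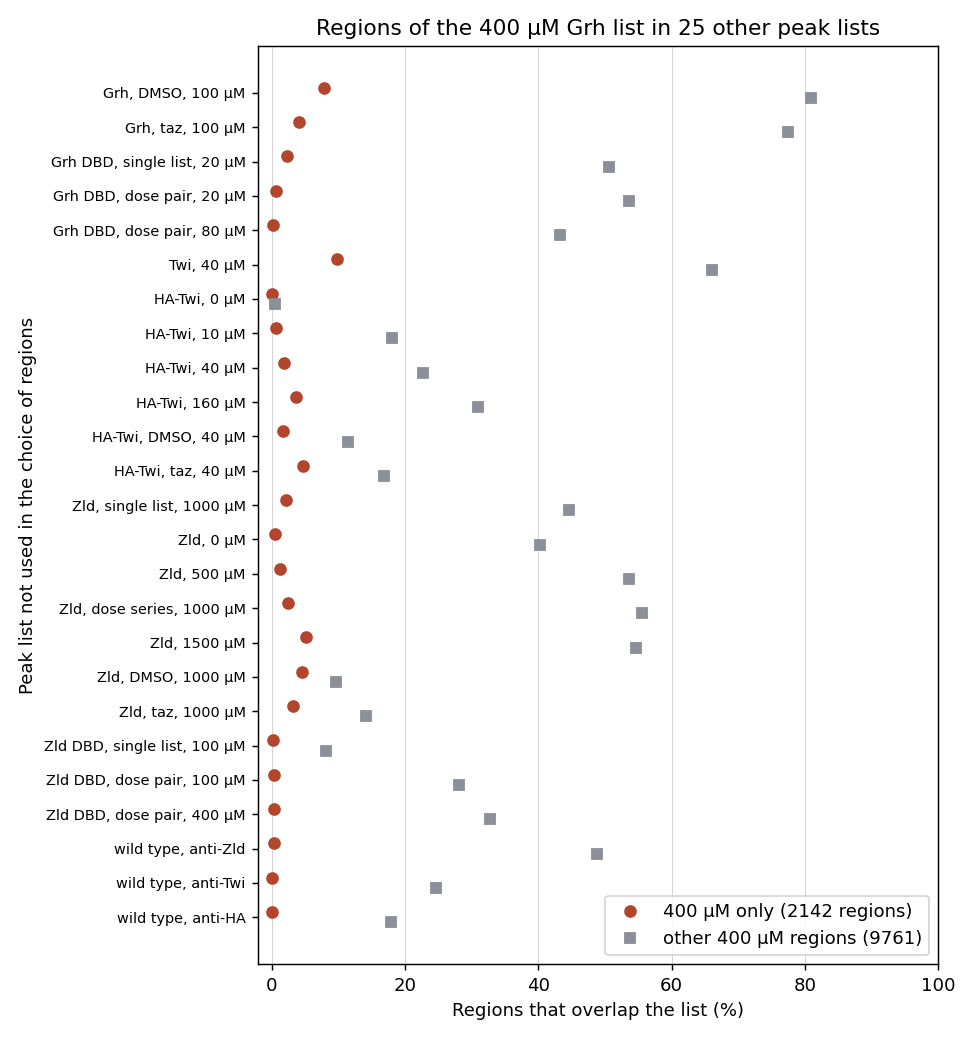
Share of regions of the 400 µM Grh list that overlap each of the 25 lists not used in the choice, in percent, for the 2142 regions called at 400 µM only (circles) and the other 9761 (squares). Each list is 1 pool of 2 libraries; the circles stay below 10% in every list, with the highest at 9.76% in the Twi list.

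Further lists of S2-Grh cells, made at 100 µM with DMSO or taz, held few of them. The rule removes every region called in 2 other S2-Grh lists at 100 µM, so a low share of 400 µM-only regions and a high share of the others in these lists is largely set by the choice. The values are a description, and neither list repeats the 400 µM experiment. The Grh list made with DMSO at 100 µM, in the same S2-Grh cells, held 169 of the 400 µM-only regions (7.89%, 6.78% to 9.11%), against 80.9% (80.1% to 81.7%) of the other regions and 67.8% of the whole list. The Grh list made with taz held 89 (4.15%, 3.35% to 5.09%), against 77.4% (76.6% to 78.2%) of the others and 64.2% of the whole list. Either list held 206 (9.62%, 8.40% to 10.9%), against 84.8% of the others and 71.3% of the whole list. Both lists held 52, the DMSO list alone 117 and the taz list alone 37. Seen from the other side, 1.81% of the DMSO list and 0.955% of the taz list overlapped a 400 µM-only region. Since the sets differ in width, they were also compared among narrow regions. Among those of at most 500 bp the DMSO list held 4.63% of 1403 that were 400 µM-only and 50.6% of 2104 others.

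The share found again at 100 µM went with the fold at 400 µM. In the DMSO list stood 3 of the 451 400 µM-only regions with a fold under 3 (0.665%, 0.137% to 1.93%). The share was 3.93% for folds of 3 to 4, 6.81% for 4 to 5, 21.2% for 5 to 6 and 34.1% for 6 to 7. It was 20 of 36 for folds of 7 or more (55.6%, 38.1% to 72.1%). The other regions ran from 47.8% (45.2% to 50.4%) under 3 to 98.7% (98.2% to 99.1%) at 7 or more, above the 400 µM-only regions in each of the 6 classes. The taz list followed the same order, from 2.00% (0.916% to 3.75%) under 3 to 16.7% (6.37% to 32.8%) at 7 or more among 400 µM-only regions, against 41.3% and 95.7% among the others. Width rose with fold as well, from a median of 382 bp under 3 to 562 bp at 6 to 7 among the 400 µM-only regions, and its part in these shares was not tested.

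**Figure D2:**
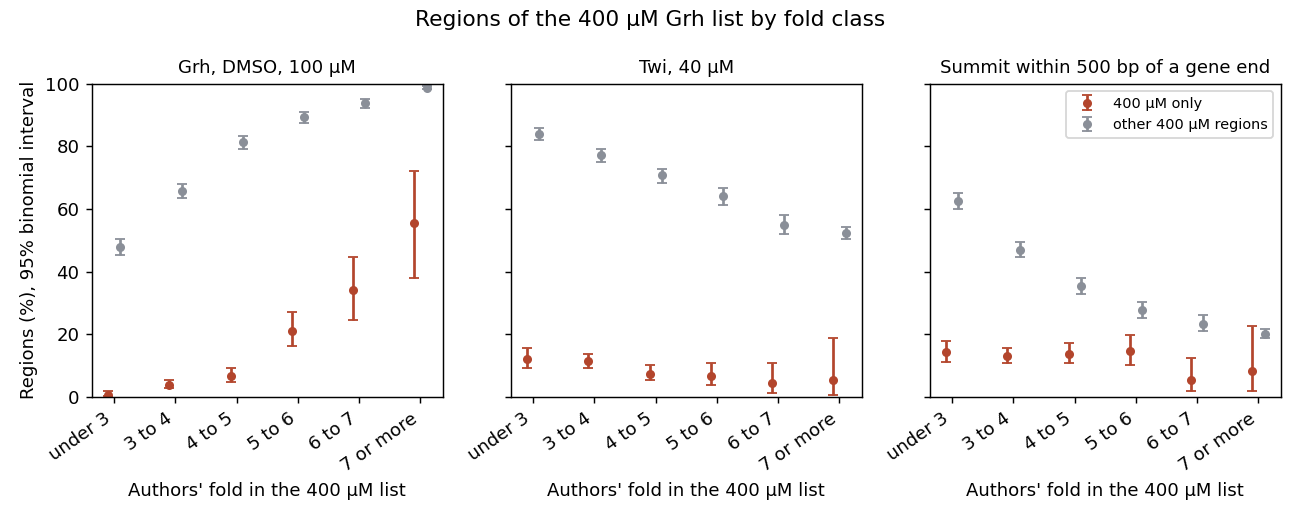
Share of regions, in percent, that overlap the Grh DMSO list (left), overlap the Twi list (middle) or have the summit within 500 bp of a gene end (right), by the authors' fold in the 400 µM list. Points are regions called at 400 µM only and, right of them, the other regions, with exact 95% binomial intervals; the left panel climbs from 0.665% to 55.6% in the 400 µM-only regions while the middle panel does not climb.

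The shortened Grh construct had almost none of them in its lists. The rule removes every region called in the lower-dose and wild-type lists made with the same antibody. The low share here, and the contrast with the other regions, are therefore not independent of the choice. Whether the shortened construct can bind these regions was not tested. Any of the 3 Grh DBD lists held 54 (2.52%, 1.90% to 3.28%), against 62.2% (61.3% to 63.2%) of the other regions and 51.5% of the whole list. By list, the single 20 µM experiment held 49, the 20 µM list of the dose pair 14 and the 80 µM list 6. By fold, 14 of the 451 regions with a fold under 3 were in a DBD list (3.10%, 1.71% to 5.15%). The shares were 3.46% for folds of 3 to 4, 1.60% for 4 to 5 and 1.33% for 5 to 6. No call was seen among the 91 with a fold of 6 to 7 (upper limit 3.97%) or the 36 at 7 or more (upper limit 9.74%), and these limits do not show a lower share than under 3. Among the other regions the shares were 69.7% under 3, 55.3% at 6 to 7 and 55.4% at 7 or more.

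Twi and Zld shared a small number, each mostly on its own. Here and in the Zld and HA-Twi comparisons below, the other regions include those called with anti-Grh in wild-type cells. The rule keeps these out of the 400 µM-only set, so the contrast is not independent of the choice. The Twi list held 209 of the 400 µM-only regions (9.76%, 8.53% to 11.1%), against 66.0% (65.0% to 66.9%) of the other regions and 55.9% of the whole list. All 7 Twi or HA-Twi lists together held 225 (10.5%, 9.24% to 11.9%), against 68.1% of the others and 57.7% of the whole list. The single-dose Zld list held 46 (2.15%, 1.58% to 2.85%), against 44.6% (43.6% to 45.6%) of the other regions and 37.0% of the whole list. All 7 lists of full-length Zld held 170 (7.94%, 6.83% to 9.16%), against 66.0% of the other regions and 55.6% of the whole list. The Zld DBD lists held 14 (0.654%, 0.358% to 1.09%), against 38.3% of the other regions and 31.5% of the whole list. Only 35 of the 400 µM-only regions were in lists of both factors, while 190 were in a Twi list without Zld and 135 in a Zld list without Twi. Those in the Twi list had a median fold of 3.42 in the Grh list, against 3.71 for those outside it. The Twi share was 12.2% (9.32% to 15.6%) for folds under 3 and 5.56% (0.680% to 18.7%) for folds of 7 or more.

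Wild-type S2 cells gave almost no calls at these places. The anti-Zld, anti-Twi and anti-HA lists of wild-type cells together held 10 of the 400 µM-only regions (0.467%, 0.224% to 0.857%), against 50.1% (49.1% to 51.1%) of the other regions and 41.2% of the whole list. The anti-Zld list, from wild-type cells at 1000 µM copper sulfate, held 9, the anti-Twi list 2 and the anti-HA list 0 (upper limit 0.172%). The removal of the wild-type anti-Grh list is part of the rule, so a low overlap with the other wild-type lists is not wholly independent of it.

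The cells expressing Zld or HA-Twi were also taken through copper series, and the share of 400 µM-only Grh regions was higher at each higher dose. In the Zld line the lists at 0, 500, 1000 and 1500 µM held 0.514%, 1.26%, 2.52% and 5.14% of them. The other Grh regions had 40.2%, 53.6%, 55.5% and 54.7%, and the whole 400 µM list 33.0%, 44.2%, 46.0% and 45.8%. From 1000 to 1500 µM the 400 µM-only regions in the list rose from 54 to 110, while the share of the others did not rise. These are net changes between 2 lists. Zld regions called at 1500 µM only overlapped 2.29% of the 400 µM-only regions and 2.35% of the others. In the HA-Twi line the lists at 0, 10, 40 and 160 µM held 0.0467%, 0.654%, 1.87% and 3.59%, against 0.522%, 18.0%, 22.7% and 30.9% of the other regions and 0.437%, 14.8%, 18.9% and 26.0% of the whole list. The lists themselves also grew with dose, from 6719 to 9615 regions for Zld and from 77 to 5581 for HA-Twi.

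**Figure D3:**
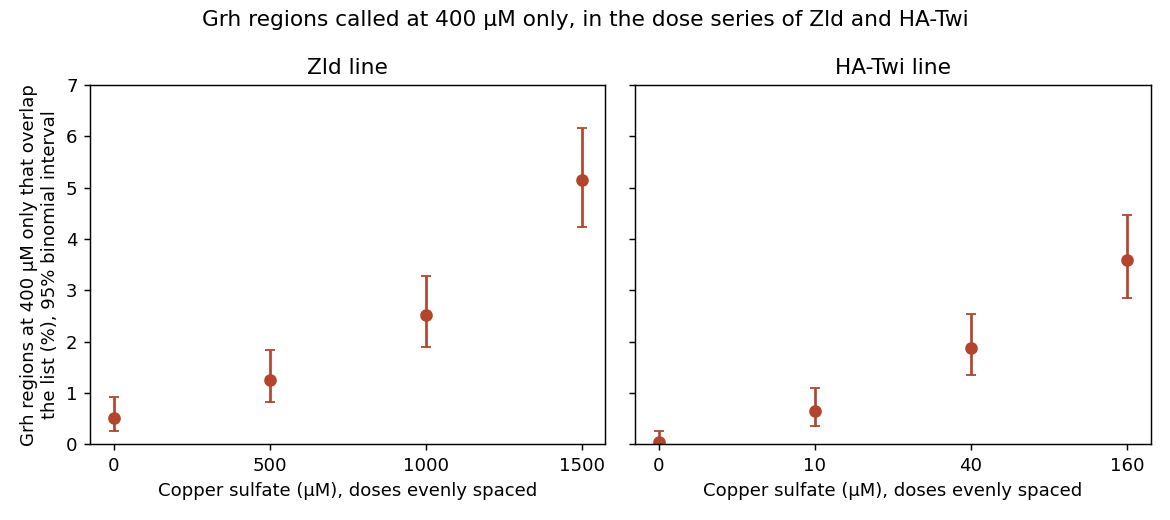
Share of the 2142 Grh regions called at 400 µM only that overlap the lists of the Zld line (left) and the HA-Twi line (right), in percent, by copper sulfate dose in µM. Points carry exact 95% binomial intervals; the shares end at 5.14% for Zld at 1500 µM and 3.59% for HA-Twi at 160 µM.

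The overlap with regions that were themselves called at the highest dose only was small. By the same kind of rule, 1046 Zld regions were called at 1500 µM only, and 49 of the 400 µM-only Grh regions overlapped one (2.29%, 1.70% to 3.01%), against 2.35% of the other regions and 2.34% of the whole list. Seen from Zld, 4.68% of its 1500 µM-only regions overlapped a 400 µM-only Grh region and 22.1% another region of the list. Of 1831 HA-Twi regions called at 160 µM only, 1.80% overlapped one and 38.8% another region. They held 33 of the 400 µM-only Grh regions (1.54%, 1.06% to 2.16%), against 7.02% of the others and 6.03% of the whole list. The gap between the sets was narrower in the DMSO and taz lists than in the dose-series lists at the same dose. List sizes differed too. The Zld DMSO and taz lists held 2150 and 3222 regions, against 9449 in the dose series at 1000 µM. For HA-Twi they held 2197 and 3968 regions, against 3862 at 40 µM. The part of list size in the gap was not tested. The Zld DMSO list held 4.62% of the 400 µM-only regions, against 9.61% of the others and 8.71% of the whole list. The Zld taz list held 3.22%, against 14.2% of the others and 12.2% of the whole list. The HA-Twi taz list held 4.72%, against 16.8% of the others and 14.6% of the whole list, and the HA-Twi DMSO list 1.77%, against 11.5% of the others and 9.72% of the whole list.

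The 400 µM-only regions lay away from gene ends more often than the other regions, both inside and outside genes. Both ends of a gene are counted, since the annotation used gives no strand. The summit was within 500 bp of an end of a protein-coding gene in 284 of them (13.3%, 11.9% to 14.8%), against 34.9% (33.9% to 35.8%) of the other regions and 31.0% of the whole list. It was elsewhere in a gene in 65.5% (63.4% to 67.5%), against 53.8% (52.8% to 54.7%) of the other regions, and outside genes in 21.3% (19.6% to 23.1%), against 11.4% (10.8% to 12.0%) of the other regions. The median distance of the summit to the nearest gene end was 3082 bp, against 1328 bp for the other regions. Counted per summit, the shortest gene that held it had a median length of 18804 bp, against 15494 bp for the other regions. A gene with several summits counted several times, so these medians cannot be set against the 2163 bp median over all 13922 protein-coding genes. By fold, 14.2% (11.1% to 17.8%) of the 400 µM-only regions were near a gene end at folds under 3 and 14.6% (10.3% to 19.9%) at 5 to 6. The share was 5.49% (1.81% to 12.4%) at 6 to 7 and 8.33% (1.75% to 22.5%) at 7 or more, where few regions were left. Among the other regions the share near a gene end was 62.5% (60.0% to 65.0%) at folds under 3 and 20.2% (18.7% to 21.8%) at 7 or more.

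Regions were ordered by the lowest dose with an overlapping Grh region, and those also in the wild-type anti-Grh list were placed first. That list was made at 100 µM without the construct, so the first class is not a lowest dose alone. Position shifted along this order. Near a gene end lay 40.8% (38.7% to 42.8%) of the 2233 regions also called at 0 µM or in wild type, 40.6% (39.2% to 42.0%) of 4914 first called at 25 µM, 19.1% (17.6% to 20.6%) of 2614 first called at 100 µM, in either 100 µM list, and 13.3% of the 2142 called at 400 µM only. The break thus lay between 25 and 100 µM. Overlap with the Twi list followed the same order, with 90.8%, 75.7%, 26.5% and 9.76%. So did overlap with any Grh DBD list, with 88.8%, 76.0%, 13.6% and 2.52%, and overlap with the Grh DMSO list, with 87.6%, 85.4%, 66.8% and 7.89%. Median width was lower in each further class, with 1110, 802, 660 and 426 bp. Median fold in the 400 µM list had no such order, with 4.87, 5.03, 5.64 and 3.69. The classes are defined by calls in S2-Grh lists and, for the first class, in the wild-type anti-Grh list. Their order in the Grh DMSO list, also at 100 µM, restates that definition. Their order in the Grh DBD lists, made with the same antibody, is not independent of it either. The 100 µM class was nearer in position to the 400 µM-only class than to the classes of lower dose.

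**Figure D4:**
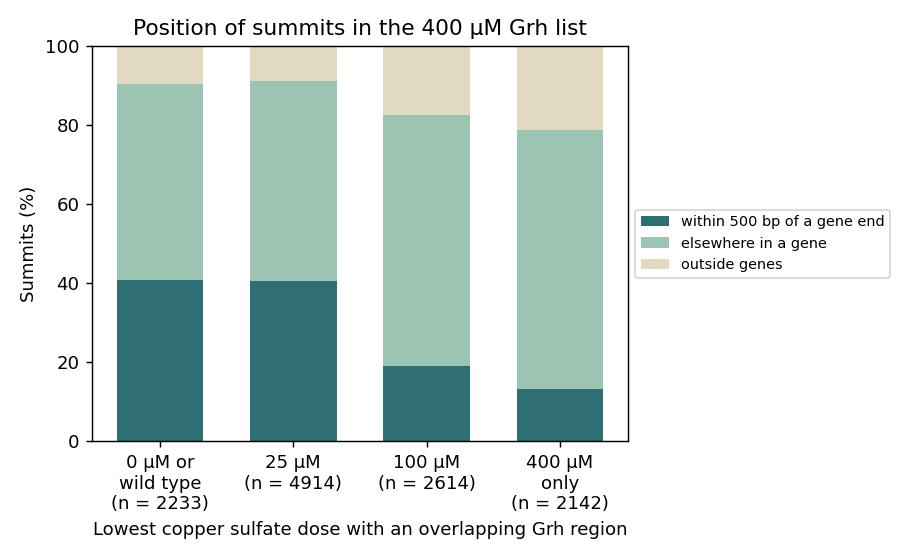
Position of the summit of each region of the 400 µM Grh list, in percent of regions, by the lowest copper sulfate dose with an overlapping Grh region (n under each bar). Stacked bars give summits within 500 bp of a gene end, elsewhere in a gene and outside genes; the lowest segment falls to 13.3% at 400 µM only.

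The 400 µM-only region of highest fold lay inside Taf1, whose product is the largest subunit of TFIID, a general transcription factor (chromosome 3R, 6652614 to 6653412 of dm6, fold 9.05). It was 3713 bp from the nearest lower-dose region, and the region overlapping it had a fold of 2.95 in the DMSO list and 3.4 in the taz list. The next lay inside the uncharacterised gene CG11030 (2L, 5744679 to 5745051, fold 8.94). It was 15363 bp from any removed region and was in no other list. A region inside qm, which encodes a geranylgeranyl pyrophosphate synthase (3L, 7351388 to 7352639, fold 8.84), was also in the DMSO list (fold 2.47) and in the Twi list (fold 8.29). A region 7402 bp from Indy, a citrate transporter gene (3L, 18853490 to 18853842, fold 8.84), lay only 347 bp from a lower-dose region, and its folds were 5.79 in the DMSO list and 4.42 in the taz list. These 4 examples differ in company: the Taf1 and Indy regions returned in both further Grh lists, the qm region in 1 of them and the CG11030 region in none.

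The nicotinic acetylcholine receptor subunit genes nAChRalpha5 (2L, 14085867 to 14086409, fold 8.8) and nAChRalpha7 (X, 19330079 to 19330469, fold 7.45) each held one. The nAChRalpha5 region was in the DMSO list (fold 3.23) and the Twi list (fold 3.15), and the nAChRalpha7 region in no other list. Others lay inside the serotonin transporter gene SerT (2R, 24406736 to 24407279, fold 7.65, DMSO fold 3.27), the neuropeptide receptor gene TkR86C (3R, 10737926 to 10738801, fold 7.64, in no other list) and the allatostatin A receptor gene AstA-R1 (X, 3576401 to 3576835, fold 7.28). The AstA-R1 region was in the DMSO list (fold 3.52) and in 3 Zld lists. Regions also lay inside sano, a planar polarity gene (2R, 18923874 to 18924347, fold 8.09, 20382 bp from a lower-dose region and in no other list), inside the actin nucleator gene spir (2L, 20330585 to 20331454, fold 7.41, DMSO fold 3.83), and 73 bp from the cadherin gene Cad74A (3L, 17379215 to 17379812, fold 7.71, in no other list).

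The rest of the 25 of highest fold ran down to 7.26. They were inside prage (fold 8.7), stmA (7.84), CG46467 (7.77), CG14431 (7.77), CG32176 (7.7), CG1986 (7.6), CG8008 (7.52), sowah (7.42), MTA1-like (7.36), CG42541 (7.31) and Kcmf1 (7.26), and outside genes 17302 bp from the homeobox gene hth (7.43) and 7828 bp from CG43736 (7.28). MTA1-like encodes a subunit of a chromatin remodelling and deacetylase complex. Of the 25, 21 had the summit inside a gene and 2 within 500 bp of a gene end. In the DMSO list were 15, in the taz list 5, in the Twi list 2, in any full-length Zld list 3, in any Grh DBD list 0, and 9 were in none of the 25 lists. Their distance to a lower-dose region ranged from 265 bp at CG32176 to 32354 bp at CG14431, with a median of 3713 bp.

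A different group stood out by the number of other lists. A region inside NFAT (X, 13648441 to 13648772, Grh fold 4.8) was in 14 of the 25 lists, 5 of Twi or HA-Twi and 9 of Zld or its DBD construct. Its fold was 8.56 in the Zld DMSO list and 7.28 in the single-dose Zld list. Folds describe rank within a list, so those given here do not compare between lists. The NFAT region was in no further Grh list and no wild-type list. A region inside CG4678 (X, 16695735 to 16697046, Grh fold 5.01) was in 13 lists, all 3 Grh DBD lists among them (folds 2.7, 2.57 and 2.93), and lay 264 bp from a lower-dose region. A region 22551 bp from plh (3R, 5033302 to 5033729, Grh fold 3.81) was in 9 lists, with a fold of 9.04 for Twi. A region 6041 bp from oc, a homeobox gene of the head (X, 8656507 to 8657402, Grh fold 3.09), was in 9, of which the DMSO list was the only one of Grh (fold 3.07). A region on 2R (5752225 to 5753175, Grh fold 3.29), 1536 bp from the nearest gene, was in 10 lists, 2 Grh DBD lists among them. Further regions of this kind lay near Osi21 (9 lists), hng3 (9) and Taf3 (8) and inside osp (8) and Mef2 (8).

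Over the genome, 2018 of 13922 protein-coding genes (14.5%, 13.9% to 15.1%) had a 400 µM-only summit in the gene or within 2000 bp of it, and 7693 (55.3%) had another region of the list. Of the 2018, 1423 (70.5%, 68.5% to 72.5%) also had another region, and 595 had no other region of the 400 µM list; calls of the lower-dose lists at these 595 genes were not counted. A longer gene offers more room for a summit, so the median gene length stands beside each list. The 11 lists of genes, written with earlier results of these data known, held 338 genes, of which 73 had a 400 µM-only summit.

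Of the septate junction and epithelial genes, 8 of 28 had a 400 µM-only region (28.6%, against 14.5% of all genes; median gene length 9170 bp), and 25 of 28 had another region of the list. The highest were inside sdt, a gene of apical polarity (X, 8206622 to 8206907, fold 5.97), and inside shg, which encodes E-cadherin (2R, 21055102 to 21055517, fold 5.89, in the DMSO list with 2.58). The septate junction gene Nrx-IV had one 1503 bp away (fold 4.65). The polarity gene scrib held one (fold 4.3) that was also in the Twi list (fold 6.36) and in 3 HA-Twi lists. Atpalpha, dlg1, Fas3 and Lac had folds of 4.37, 3.63, 3.33 and 2.97. None of the 8 was without another region.

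Of 17 matched cuticle and wound response genes, 6 had one (35.3%, against 14.5% of all genes; median gene length 6170 bp) and 16 had another region. The region inside e, the cuticle pigmentation gene ebony (3R, 21233985 to 21234826, fold 6.14), was also in the DMSO list (2.78) and the taz list (3.05). In the neighbouring chitin deacetylase genes serp (3 regions, highest fold 5.58) and verm (1 region, fold 5.56), the region of highest fold was in no other list. The chitinase gene Cht6 held 5, with folds of 3.41, 4.62, 3.59, 4.37 and 3.59, all in no other list. The apical matrix genes dpy and pio had highest folds of 4.37 and 3.59.

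Polycomb targets, developmental regulators kept silent in most cells, had the highest share of the 11 lists. Of 34, 18 had a 400 µM-only region (52.9%, against 14.5% of all genes; median gene length 16888 bp), 39 regions in all, and 33 of 34 also had another region. The Hox genes of the bithorax complex each held some: Abd-B 1 (fold 7.09), Ubx 6 and abd-A 2 (highest fold 5.85, in the DMSO list with 2.04). In the other Hox complex, pb had a fold of 6.36, Antp 4.18 and Scr 2.69. The segment gene inv held 5 (highest fold 5.7) and its neighbour en 1 (fold 3.07). The limb gene Dll had 4, with a highest fold of 5.06, and that region was also in 2 Zld lists. Of the 18, none lacked another region of the 400 µM list.

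Neuronal channel and receptor genes had one in 7 of 27 (25.9%, against 14.5% of all genes; median gene length 37801 bp), and 2 of these, the potassium channel gene slo (fold 6.99) and the dopamine receptor gene Dop1R1 (fold 3.7), had no other region of the 400 µM list. The sodium channel gene para held 5 (highest fold 6.46). Mesoderm genes had one in 9 of 30 (30%, against the same 14.5%; median gene length 21036 bp) and early zygotic patterning genes in 7 of 31 (22.6%, against the same 14.5%; median gene length 3049 bp). Of the mesoderm genes, Mef2, a muscle regulator also on the list of blood cell genes, had 4, and the strongest (fold 5.9) was in the DMSO list (2.36), the Twi list (9.99) and 4 HA-Twi lists. The integrin gene if had a fold of 4.26 and a Twi fold of 6.63. Among early zygotic genes, the dorsoventral genes zen (fold 4.26) and sog (3.87) had Twi folds of 5.22 and 4.64, and the region 1141 bp from dpp (3.8) was in 3 Zld lists.

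The remaining lists are read against the same 14.5% of all genes. Blood cell genes, with one in 3 of 22 (13.6%; median gene length 9593 bp), were close to it, and the 3 were Mef2, peb and ush. Of 18 copper and metal genes, 1 had one (5.56%; median gene length 1527 bp). It was MTF-1, which encodes the metal-responsive transcription factor (3L, 9431008 to 9431438, fold 3.84), and its region was also in the Twi list (5.91), an HA-Twi list and a Grh DBD list. Heat-shock and stress genes had 1 of 25 (4%; median gene length 2324 bp), Hsf, the heat-shock factor gene (fold 2.95). Ribosomal protein genes had one in 9 of 88 (10.2%; median gene length 1344 bp), 4 of them without another region. General transcription genes had one in 6 of 27 (22.2%; median gene length 4780 bp), which besides Taf1 were the Mediator genes kto (fold 5.65) and MED1 (4.8), fs(1)h (3.8), osa (3.31) and Taf7 (2.85). The 3 lists with the shortest genes, those of ribosomal proteins, of copper and metal and of heat shock, had the 3 lowest shares, and the part of gene length in the shares was not tested.

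Some genes held several 400 µM-only regions. The muscle fusion gene kirre, which spans 394149 bp, held 9 with folds from 3.59 to 7.06, beside 29 other regions. The overlapping genes CG46467 and Glut4EF share the same 7. The Hox gene Ubx held 6 and 3 other regions, that is 7.71 of the 400 µM-only kind per 100 kb. Its 6 had folds of 3.08, 2.93, 6.08, 6.9, 3.36 and 4.36 along the gene, and the fourth was in the taz list (2.83) while the other five were in no further list. The T-box gene bi, a regulator of eye and wing, held 6 beside 3 others (8.24 per 100 kb), with folds of 2.31, 5.4, 4.48, 3.84, 4.87 and 3.66. None of these was in a further Grh list, and 2 were in Zld lists. The chitinase gene Cht6 had the densest set of the first 10, with 14.7 per 100 kb. Further genes also held 5, such as inv (14.2 per 100 kb), and were left out of the 10 by name order. In CG32816 (6), Mur2B (6), Ptp61F (6) and CG34355 (5) the highest folds were 3.59, 5.29, 3.94 and 4.52.

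**Figure D5:**
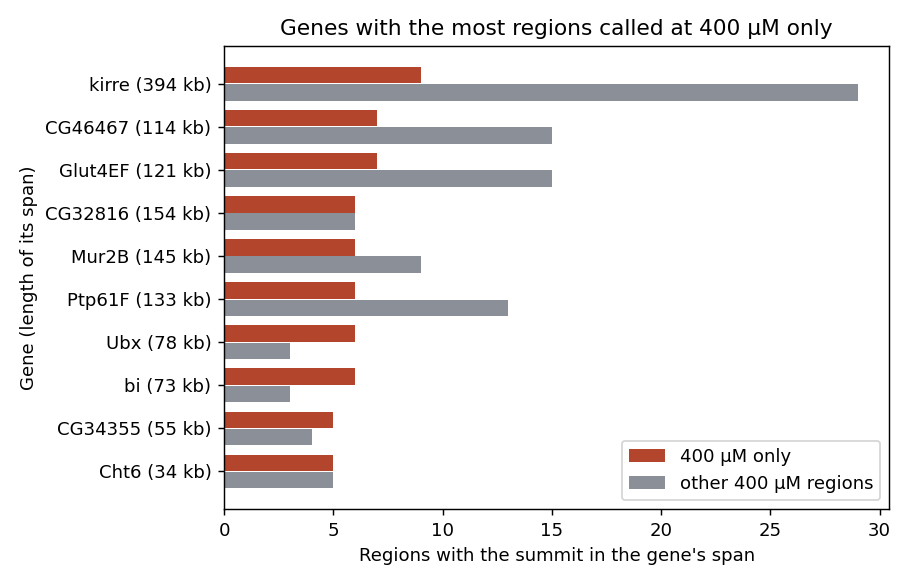
Number of region summits inside each of 10 genes, for the regions called at 400 µM only (upper bars) and the other regions of the 400 µM Grh list (lower bars), with each gene's length beside its name. The upper bars reach 9 at kirre, and exceed the lower ones at Ubx, bi and CG34355. Further genes tied with the last of the 10 and are not shown.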

How the data were processed

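Each deposited list is in narrowPeak format and belongs to a group of 2 libraries. For every summit the authors deposited a fold, which is a ratio of immunoprecipitation to local background, and a −log10 q-value. Per the submitters' processing notes, the tools were Bowtie2 2.4.4, MACS2 2.2 and deepTools 3.5.1 and the build dm6; roles and settings are not given there. Depth is not stated in the lists. Samples were grouped by their titles; 62 of 76 libraries stand behind the 31 lists.

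Rows with equal coordinates were merged into 1 region that keeps the highest fold; the 20194 rows at 400 µM gave 11903 regions. In 2 rows of the series a summit beyond the region's end was moved to its last base. Sharing meant an overlap of at least 1 bp. Overlap and interval functions were tested on simulated data (Python 3.11.15, pandas 2.3.3, SciPy 1.17.1). Gene positions came from RefSeq's table of the same assembly, without strand or exons. Distance to a gene end therefore replaced distance to a transcription start, and motif counts were not made, as no genome sequence was used.

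The regions and gene lists were chosen with earlier results of these data known. Named were the 25 regions of highest fold, the 10 of highest fold also in the DMSO or taz list, genes of the lists with a region (up to 6 a list by fold, and here for some lists more, chosen after their values were seen), the 10 genes with most regions, and the 5 regions on either side of the rule. The 10 regions in most other lists were added after their values were seen. Genes tied at 5 regions were taken in name order. Alternatives changed the removed lists, the gap, the overlap, the q-value rank and the gene windows.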

Additional observations from a re-analysis of the deposited data

How the results depend on the processing

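No paired analysis was possible because each list pools its 2 libraries, and for the same reason no replicate could be left out. The planned motif count was not run. Of 73 alternatives over 11 results, 51 left the value within its 95% interval (or a count within 1.5 times) and 22 did not. Restricted to the 400 µM regions in the upper part of the list by −log10 q-value, 319 regions were left. Of these, 29.5% were in the Grh DMSO list, 11.0% in the Grh taz list, 0.313% in any Grh DBD list, 6.58% in the Twi list, 0.313% in the Zld list and 0 in any other wild-type list. Their summits were near a gene end in 11.6%, the median distance to a removed list was 3168 bp, the median fold 5.81, and 23 listed genes had one. None of these values was computed for all 400 µM regions of that part, so the whole-list shares are not their counterpart. With only the 3 lower lists of the dose series removed, 9.69% were in the Grh DMSO list, 3.29% in any Grh DBD list, 12.3% in the Twi list, 3.74% in the Zld list and 1.77% in any other wild-type list. The share in the Twi list was 8.17% when at least 50% of the shorter region had to overlap, and 7.56% when the summit had to lie inside the other region, an alternative chosen after seeing the data. The share near a gene end was 7.61% with a window of 250 bp and 22.5% with 1000 bp. The median distance was 2818 bp when regions within 250 bp of a removed list were dropped. The median fold was 3.62 when the Grh DMSO and taz lists were removed too. Leaving 1 of the 5 lists out of the rule gave from 2143 regions (without 0 µM) to 2971 (without the 100 µM list of the dose series). For these 5 rules only the number of regions was computed. The causes were not tested. Depth is unknown, so the size of difference these lists could detect is unknown too.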

Other observations

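The 400 µM-only regions were spread evenly at a coarse scale. In 26 windows of 5 Mb with at least 100 regions of the 400 µM list, they made up 13.3% to 21.9% of the regions, with a median of 17.9%. Those within 1000 bp of a lower-dose region were in the Twi list in 13.4%, in the Grh DMSO list in 6.61% and near a gene end in 15.6%. Beyond 10000 bp these shares were 3.53%, 10.0% and 9.41%. Of all 25 lists, the one with the largest part of its own regions overlapping a 400 µM-only region was the Zld DMSO list, with 4.56% of 2150 regions, followed by the HA-Twi taz list with 2.49% of 3968. The part of each list that overlaps the other 400 µM regions was not computed, so this order does not show a particular link to the 400 µM-only regions.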
